A study of Homo sapiens with 6 samples.

Results

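The transforming growth factor beta (TGF-beta) pathway and the transcription factors of the epithelial-to-mesenchymal transition (EMT) were examined in Hep3B cells with and without sorafenib through 9 genes: TGFB1, TGFB2, TGFBR1, TGFBR2, SMAD3, SMAD7, SNAI2, ZEB1 and TGFBI. The genes were listed by symbol, and every array probe that the platform annotation assigns to one of them was taken, which gave 13 of the 47321 probes on the array and 9 of 20045 named genes. Hep3B is an established human hepatocellular carcinoma line that lacks functional p53. The control group was 3 samples of Hep3B kept for 24 h in the solvent DMSO, and the sorafenib group was 3 samples of the same line kept for 24 h in sorafenib, an inhibitor of RAF and of receptor tyrosine kinases. The labels give the dose as 3 mM, a unit that may be an error for micromolar and could not be checked against the data. All groups are the same single cell line at 1 dose and 1 time, and the labels do not say whether the samples were separate cultures. The spread that p-values rest on here may therefore be technical.

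Each sample was hybridised to 1 Illumina BeadChip array. Between 16214 and 17380 probes were detected per array (detection p under 0.01), with raw median intensities of 106 to 117. Across the tested probes, arrays of the same group had correlations of 0.992 to 0.997, and arrays of different groups 0.977 to 0.981. The line's labelled origin was checked against 9 hepatocyte and liver cancer markers, all of which passed the detection filter. Of these, 2 rose, 2 fell and 5 did not pass, a share near the 36.7% called among all 10598 tested genes. AFP (alpha-fetoprotein) and TF (transferrin) fell, with log2 differences of -0.39 and -0.27, and the apolipoprotein APOA1 rose by 0.28 (0.16 under the alternative that moved it most). The APOA1 call was lost in 6 of 16 alternatives, 4 of them with 1 array left out, and the TF call in 1. Over these alternatives 0 to 2 of the 9 markers rose and 1 to 4 fell. The summed normalized intensity of the 9 markers was 140491 to 144391 in control cells and 133149 to 138082 with sorafenib. Of 8 markers of immune, endothelial and fibroblast cells, PTPRC, PECAM1, VWF, DCN and THY1 were undetected on all 6 arrays. CD68 and LUM were detected on arrays of both groups, PDGFRB only on the control arrays, through which alone it passed the filter. The summed normalized intensity of these 3 lay between 2181 and 2407 in control cells and between 1574 and 1716 with sorafenib. LUM, a matrix proteoglycan, fell by 0.59 ± 0.08 on the log2 scale (SE), PDGFRB, a growth factor receptor, was at least 1.57-fold lower, and the macrophage marker CD68 differed by -0.05 (adjusted p = 0.744). The part of these markers in the results on TGF-beta genes was not tested.

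TGF-beta ligands are secreted in a latent form and, once released, bind TGFBR2, which recruits and phosphorylates TGFBR1. TGFBR1 phosphorylates SMAD2 and SMAD3, which enter the nucleus with SMAD4 and regulate target genes, while SMAD7 is an inhibitory SMAD that is itself induced by the pathway and acts on the receptor complex. SNAI2 (Slug) and ZEB1 are zinc finger repressors of epithelial genes such as CDH1, and TGFBI is a secreted matrix protein named for its induction by TGF-beta. In the liver the pathway restrains hepatocyte growth and drives fibrosis, and in carcinoma cells it can promote EMT.

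Intensities are given on a log2 scale after background correction and quantile normalization, and a probe was tested when it was detected on at least 3 of the 6 arrays. Of the 13 probes, 9 were tested, covering 6 of the 9 genes, and 4 were undetected on every array. Of the 9 tested probes, 5 passed limma's test (adjusted p under 0.05 over all 16909 probes tested), 2 of them higher with sorafenib and 3 lower. Among all tested probes 34.1% passed, 17.9% higher and 16.2% lower. The control and sorafenib arrays did not overlap for these same 5 probes, as was the case for 49.5% of all tested probes. By gene, on the brightest probe over the 6 arrays, SNAI2 and TGFBI rose, TGFB2 and TGFBR2 fell, and SMAD3 and SMAD7 did not pass. For SNAI2 that probe was the brightest only through the sorafenib arrays, where it was high. The other SNAI2 probe was brighter in control cells (mean 5.76 against 5.48) and did not pass. The array reads RNA from the whole culture, so fewer cells expressing a gene and less RNA per cell cannot be told apart.

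The start regions of the 3 called members that may be printed are shown here, with that of SMAD7 beside them because SMAD proteins are known to bind its promoter. Each is the stretch of 250 bases before the RefSeq start site in GRCh38.p14, written 5′ to 3′ on the gene's own strand, and capitals mark the SMAD box CAGAC or its reverse complement GTCTG. RefSeq windows were available for 8 of the 9 genes, and where a gene had several start sites the first listed was used.
TGFB2 (chr1:218345086-218345335, plus strand): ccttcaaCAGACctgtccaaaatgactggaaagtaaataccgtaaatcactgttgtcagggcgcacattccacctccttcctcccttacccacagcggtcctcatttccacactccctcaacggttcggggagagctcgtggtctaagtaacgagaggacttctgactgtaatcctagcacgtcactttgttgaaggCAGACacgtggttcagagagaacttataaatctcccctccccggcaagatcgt
TGFBR2 (chr3:30606106-30606355, plus strand): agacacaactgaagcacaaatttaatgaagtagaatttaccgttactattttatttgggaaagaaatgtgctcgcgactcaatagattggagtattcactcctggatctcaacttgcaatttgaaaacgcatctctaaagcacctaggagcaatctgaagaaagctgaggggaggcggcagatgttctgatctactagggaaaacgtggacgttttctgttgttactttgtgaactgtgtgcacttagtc
TGFBI (chr5:136028738-136028987, plus strand): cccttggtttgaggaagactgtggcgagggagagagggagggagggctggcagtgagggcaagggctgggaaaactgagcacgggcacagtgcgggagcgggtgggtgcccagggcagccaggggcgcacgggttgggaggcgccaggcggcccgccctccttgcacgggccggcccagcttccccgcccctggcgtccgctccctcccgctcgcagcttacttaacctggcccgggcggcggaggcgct
SMAD7 (chr18:48950966-48951215, minus strand): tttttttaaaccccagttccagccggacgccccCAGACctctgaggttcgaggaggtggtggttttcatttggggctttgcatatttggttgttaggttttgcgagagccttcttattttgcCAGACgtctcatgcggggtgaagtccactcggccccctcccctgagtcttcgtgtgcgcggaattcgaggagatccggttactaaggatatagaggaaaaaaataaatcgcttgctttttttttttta
Besides the SMAD box, both strands were searched for the AP-1 site TGANTCA, the E2-box CAGGTG that SNAI and ZEB factors bind, and the cyclic AMP response element TGACGTCA. The TGFB2 window held 2 SMAD boxes, starting 243 and 53 bases before the start site, and the SMAD7 window also held 2, at 217 and 128 bases. The printed windows of TGFBR2 and TGFBI held none of the 4 motifs, which says only that these letters are not in these stretches. Of 35116 RefSeq windows of the same length, 38% held a SMAD box, 6.57% the AP-1 site, 17.5% the E2-box and 1.65% the cyclic AMP response element.

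Among the ligands, TGFB2 fell and TGFB1 was not detected. The TGFB2 probe read 5.92, 6.26 and 6.38 on the control arrays and 5.40, 5.03 and 5.09 on the sorafenib arrays. All 3 control values lay above all 3 sorafenib values. The difference was -1.02 ± 0.15 (log2, SE, n = 3 per group, limma adjusted p = 0.00243). The probe was detected on all control arrays (detection p 0.0013 to 0.0065) and on none of the sorafenib arrays (0.053 to 0.175), so its level with sorafenib is only a bound, and TGFB2 was at least 1.27-fold lower. Such a bound sets the bright group against the dimmest detected signal of each dim array, or the probe's own signal where that is higher. It is taken from group means and carries no sampling error, so it is not a confidence limit. The probe passed the filter only through the group in which it was high. Of all 83 probes detected on every control array and no sorafenib array, 82 were called lower. On the deposited log2 values, which carry no background correction, the TGFB2 difference was -0.45.

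TGFB1, the most widely expressed ligand of the family in most tissues, gave values of 4.86, 4.73 and 4.69 in control cells and 4.64, 4.85 and 4.76 with sorafenib. Its detection p was at least 0.335 on every array, so these values are background and no difference was detectable.

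The receptors split in the same way, with 1 measured and 1 not. TGFBR2, the ligand-binding type II receptor, fell on both of its detected probes. Probe ILMN_2384241 read 10.24, 10.41 and 10.25 in control cells and 9.84, 9.87 and 9.83 with sorafenib. Probe ILMN_1726245 read 10.19, 10.13 and 10.20 in control cells and 9.74, 9.79 and 9.69 with sorafenib. On both probes the groups stood apart by more than their own spread, and detection p was 0 on every array. The differences were -0.45 ± 0.07 (SE, adjusted p = 0.00366) and -0.43 ± 0.06 (adjusted p = 0.00288), or 1.37-fold and 1.35-fold lower. The responses of these probes differed by -0.02, with an exact two-sided permutation p of 1, where the smallest possible with 3 arrays per group is 0.1. The remaining TGFBR2 probe, ILMN_1744862, was undetected on all 6 arrays (4.71 to 5.00, detection p at least 0.195) and gives no reading of the gene.

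TGFBR1, the type I receptor kinase, was undetected on all 6 arrays. Its single probe read 4.85, 5.11 and 4.73 in control cells and 4.86, 5.24 and 5.26 with sorafenib, and the lowest detection p was 0.0857. The groups overlapped, and no test was made.

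The SMADs were measured and did not pass. SMAD3, the receptor-activated SMAD of the pathway, read 10.19, 10.11 and 10.15 in control cells and 10.28, 10.16 and 10.33 with sorafenib. The groups overlapped, and the difference was 0.11 ± 0.07 with a 95% interval of -0.06 to 0.28 (adjusted p = 0.284).

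SMAD7 has 2 probes, and neither passed. The brighter one, ILMN_2203891, read 9.71, 9.50 and 9.41 in control cells and 9.37, 9.58 and 9.54 with sorafenib, so that the groups overlapped, with control replicate 1 above and sorafenib replicate 1 below all arrays of the other group. Its difference was -0.04 ± 0.10 with a 95% interval of -0.28 to 0.20 (adjusted p = 0.792), and leaving out control replicate 1 or sorafenib replicate 1 turned its sign. The dimmer one, ILMN_2203896, read 4.95, 5.46 and 6.22 in control cells and 6.06, 6.10 and 6.19 with sorafenib. Control replicate 3 stood with the sorafenib arrays on this probe and was the only control array on which it was detected. The difference was 0.57 ± 0.29 with a 95% interval of -0.10 to 1.25 (adjusted p = 0.166), and it became 0.91 (adjusted p = 0.00956) without control replicate 3. A difference between the responses of the SMAD7 probes was not shown (exact permutation p = 0.4), and the dimmer probe was at background on 2 of 3 control arrays.

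SNAI2 (Slug) has 2 probes, of which 1 passed, and their values are given one by one. Probe ILMN_2082585 read 5.49, 5.22 and 5.72 in control cells and 6.87, 6.68 and 6.75 with sorafenib. The lowest sorafenib value was above the highest control value by more than the spread within either group. The difference was 1.29 ± 0.13 (SE, adjusted p = 0.000608). Detection p was 0.013 to 0.104 in control cells and 0 on every sorafenib array, so SNAI2 was at least 1.81-fold higher on this probe. It passed the filter through the sorafenib arrays alone, and of all 255 probes detected on every sorafenib array and no control array, 230 were called higher. The deposited log2 values gave a difference of 0.61.

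Probe ILMN_1655740 of SNAI2 read 6.01, 5.91 and 5.35 in control cells and 6.14, 5.98 and 6.21 with sorafenib. Control replicate 1 was above sorafenib replicate 2, so the groups overlapped, and the probe was detected on 1 of 3 control arrays and all 3 sorafenib arrays. The difference of 0.35 ± 0.17 did not pass (95% interval -0.05 to 0.76, adjusted p = 0.158). The responses of the SNAI2 probes differed by 0.94, with an exact permutation p of 0.1 (adjusted p of 0.3 over 3 probe pairs). That p is the smallest possible with 3 arrays per group, so the test cannot decide whether the probes differ. The first probe also has only a bound in control cells, and a difference between the responses is not shown.

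ZEB1, the other EMT repressor among the 9 genes, was undetected on all 6 arrays. Its probe read 5.02, 4.76 and 4.62 in control cells and 4.71, 4.86 and 4.90 with sorafenib, with a lowest detection p of 0.194. No change in ZEB1 was detectable at this signal, and its absence is not shown by it.

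TGFBI, the matrix protein, had a bright probe that differed little. It read 13.64, 13.64 and 13.55 in control cells and 13.82, 13.92 and 13.85 with sorafenib. The groups did not overlap, and the difference was 0.25 ± 0.07, or 1.19-fold higher (adjusted p = 0.0250). This call was not firm: leaving out any 1 of the 6 arrays gave differences of 0.22 to 0.28 with adjusted p of 0.0501 to 0.0843, and centring each array on the median of the tested probes gave a difference of 0.15 (adjusted p = 0.196). Without a filter on dim probes the adjusted p was 0.0726.

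**Figure D1:**
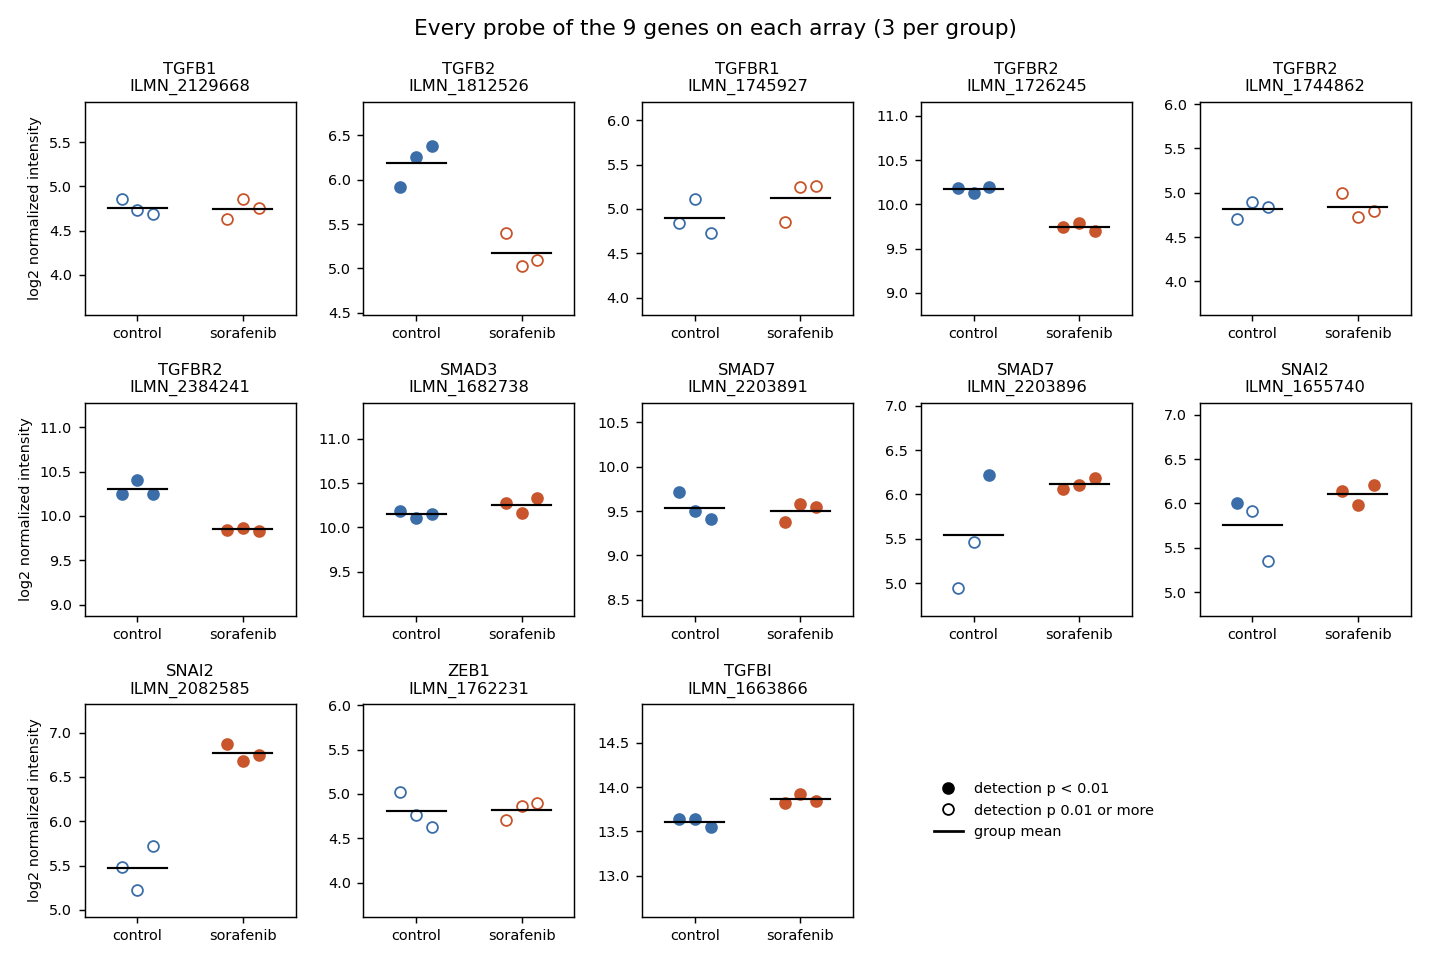
Normalized log2 intensity (vertical axis, the same span in every panel) of all 13 probes on the control and sorafenib arrays, with filled points for detection p under 0.01 and a line at each group mean. TGFB2, both bright TGFBR2 probes, SNAI2 ILMN_2082585 and TGFBI show no overlap between groups, and the open points of TGFB1, TGFBR1, ZEB1 and TGFBR2 ILMN_1744862 mark probes undetected on every array.

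**Figure D2:**
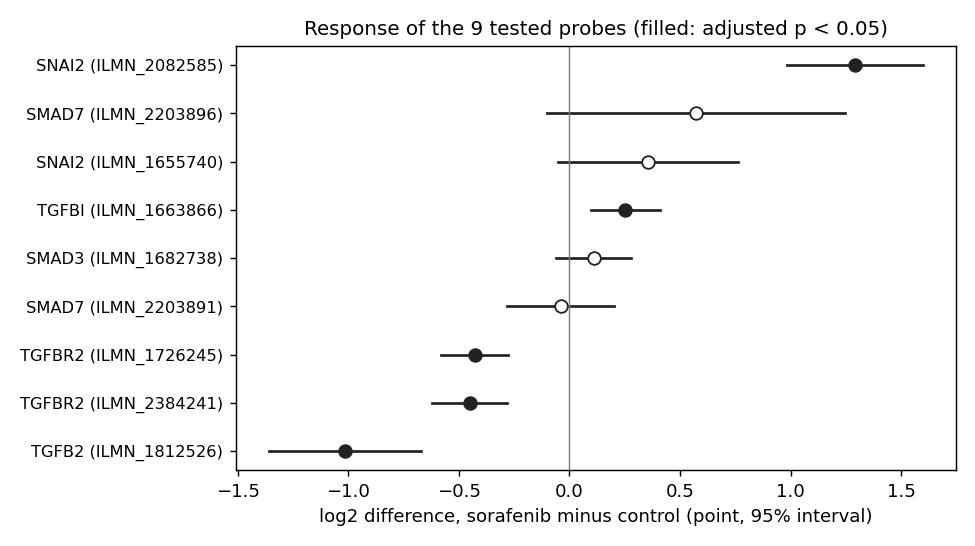
Log2 difference between sorafenib and control (horizontal axis) for the 9 tested probes with 95% intervals, filled where adjusted p was under 0.05. The order runs from TGFB2 at -1.02 to SNAI2 ILMN_2082585 at 1.29, and the intervals of SMAD3, both SMAD7 probes and SNAI2 ILMN_1655740 include 0.

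The rest of the pathway was read from 10 lists of 140 other genes, each gene represented by its brightest tested probe. Of these, 78 were tested, 12 rose, 33 fell and 33 did not pass, against 36.7% called among all 10598 genes (19.7% higher and 17.0% lower). Their median difference was -0.19, beside -0.00054 for all genes. The lists were chosen with earlier results of these data known, so their direction is not independent evidence.

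Upstream of the receptors, genes listed for latency and activation of the ligands went both ways. Of 6 tested, 3 rose and 1 fell. THBS1, thrombospondin 1, which can activate latent TGF-beta, fell 2.18-fold (log2 -1.13 ± 0.16), with values of 11.65 to 11.99 in control cells and 10.37 to 10.91 with sorafenib. BMP1, a protease that processes matrix proteins and latent complexes, rose 1.69-fold (0.76 ± 0.10), and LTBP2, of the latent TGF-beta binding protein family, rose 1.40-fold (0.48 ± 0.10). LTBP3, the other gene that rose (0.24 ± 0.08), was named after its values were seen. Its call was lost in 8 of 16 alternatives, 5 of them with 1 array left out.

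Among 7 other ligands of the superfamily, 4 fell and 1 rose. TGFB3, the remaining TGF-beta isoform, was detected on all arrays and fell 1.67-fold (-0.74 ± 0.09, adjusted p = 0.00115, and -0.42 under the alternative that moved it most). INHBB, an inhibin and activin beta subunit, fell 1.91-fold (-0.93 ± 0.10), whereas INHBE, another subunit of that family made mainly in liver, rose 1.81-fold (0.85 ± 0.06, adjusted p = 0.000149). The INHBE values were 12.59 on all 3 control arrays and 13.43 to 13.46 with sorafenib.

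Of 5 extracellular antagonists tested, 2 rose and 1 fell. FST, follistatin, which sequesters activins, fell 2.62-fold (-1.39 ± 0.07, adjusted p = 7.1e-05), and its second probe fell by 0.90. FSTL3, a related activin binder, rose 1.48-fold (0.57 ± 0.11). GREM1, an antagonist of bone morphogenetic proteins (BMPs), was detected on 1 of 3 control arrays and rose by 0.55 ± 0.15 (0.25 to 0.71 over the alternatives), a call that held with 1 array left out only without control replicate 1.

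Of 7 other receptors, 2 fell and 1 rose. TGFBR3 (betaglycan), a co-receptor that presents TGF-beta 2 to TGFBR2, fell 1.94-fold (-0.95 ± 0.17, adjusted p = 0.00571, and -0.53 under the alternative that moved it most), and ACVR1, a type I receptor for BMPs and activins, fell 1.48-fold (-0.56 ± 0.08). BMPR2, the BMP type II receptor, rose by 0.26 ± 0.08, a call that held with 1 array left out only without sorafenib replicate 3.

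Of 9 other SMADs and cofactors, 2 fell, 1 rose and 6 did not pass. SMAD6, the inhibitory SMAD of the BMP arm, fell 1.69-fold (-0.76 ± 0.08, adjusted p = 0.000583), unlike SMAD7, whose brighter probe differed by -0.04. The factor SP1 fell by 0.25 (log2 -0.25 ± 0.07), and with 1 array left out this held only without control replicate 3. RNF111, a ubiquitin ligase that promotes SMAD signalling, had a fitted difference of 0.29 (0.12 to 0.35 over the alternatives). It was undetected in control cells, passed the filter through the sorafenib arrays alone and was at least 1.03-fold higher. Its call was lost in 10 of 15 alternatives. SMAD2 differed by -0.31 (adjusted p = 0.0729) and SMAD4 by 0.06 (adjusted p = 0.606), both named after their values were seen. Of 9 intracellular inhibitors 3 fell: the corepressors SKI by 0.38 (-0.38 ± 0.07), SKIL by 0.34 (-0.34 ± 0.09, with -0.39 to -0.19 over the alternatives) and TGIF1 by 0.21 (-0.21 ± 0.06). SKIL's call held with 1 array left out only without sorafenib replicate 3, and TGIF1's in none of the 6.

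Genes known as TGF-beta targets had the most calls of the 10 lists, and also the most genes tested. Of 17 tested, 13 fell, 1 rose and 3 did not pass, where 17.0% of all tested genes were called lower and 19.7% higher. The list does not separate genes that TGF-beta induces from genes that it represses, so these counts give no reading of pathway activity. The list median was -0.37, and that of the 7 other ligands of the superfamily was lower, at -0.48. CCN2, a matricellular protein, fell 2.86-fold (-1.51 ± 0.08, adjusted p = 6.6e-05), with values of 12.75 to 12.93 in control cells and 11.26 to 11.39 with sorafenib. TAGLN, an actin-binding protein, fell 2.42-fold (-1.27 ± 0.07), and JUNB, an AP-1 subunit, fell 2.05-fold (-1.03 ± 0.09, and -0.60 under the alternative that moved it most). The helix-loop-helix inhibitors ID1 (-0.81), ID3 (-0.64) and ID2 (-0.50), which BMPs induce, were also among those that fell, and were named after their values were seen. The second ID2 probe differed by -0.15 and did not pass (adjusted p = 0.254), while the second ID1 probe fell by 0.77. The member that rose was PDGFB (0.30 ± 0.09, with 0.18 to 0.36 over the alternatives), a call that held with 1 array left out only without control replicate 3. TGFBI, also a known target, was not counted in this list. Over 16 alternatives the number of genes that fell was 10 to 13 and the list median -0.43 to -0.30.

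Other EMT transcription factors were mostly below detection. Of 11 with a named probe, SNAI1, SNAI3, TWIST1, TWIST2, ZEB2, FOXC2, GSC, TCF4 and KLF8 were undetected on all 6 arrays. TCF3 differed by -0.08 ± 0.09 (adjusted p = 0.540) and PRRX1 by 0.03 ± 0.08 (adjusted p = 0.799), so 0 of 2 tested passed, and 0 of 2 had an unadjusted p under 0.05. SNAI2 was thus the single factor of the SNAI, ZEB and TWIST families with a detected probe. An undetected probe does not show that its gene is absent, and SNAI2 itself was near background.

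The markers that EMT factors act on did not move one way. CDH1 (E-cadherin), the adherens junction protein that SNAI2 and ZEB1 repress, rose 1.78-fold (0.83 ± 0.06, adjusted p = 0.000197), with values of 11.19 to 11.27 in control cells and 12.03 to 12.08 with sorafenib. ESRP1, an epithelial splicing regulator, rose 1.48-fold (0.57 ± 0.10), while the keratin KRT19 fell 1.67-fold (-0.74 ± 0.08). In all, 3 of 11 tested epithelial markers rose, 5 fell and 3 did not pass, and 7 of the 18 listed were undetected on all 6 arrays. Over 16 alternatives 2 to 3 of the tested epithelial markers rose and 3 to 6 fell. Of 12 mesenchymal markers, 7 were undetected on all 6 arrays. Of the 5 tested, 2 fell and 3 did not pass. Over 16 alternatives 0 to 1 of the tested mesenchymal markers rose and 1 to 2 fell. S100A4, a calcium-binding protein, was detected on all control arrays and no sorafenib array and was at least 1.77-fold lower. It passed the filter through the control arrays alone, the group in which it was high. TNC, tenascin C, fell 1.41-fold (-0.50 ± 0.09, and -0.25 under the alternative that moved it most). When detection on all 6 arrays was required, 1 of 4 tested mesenchymal markers fell. VIM (vimentin) differed by 0.17 ± 0.08 (adjusted p = 0.140) and CDH2 (N-cadherin) by -0.11 ± 0.13 (adjusted p = 0.567).

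**Figure D3:**
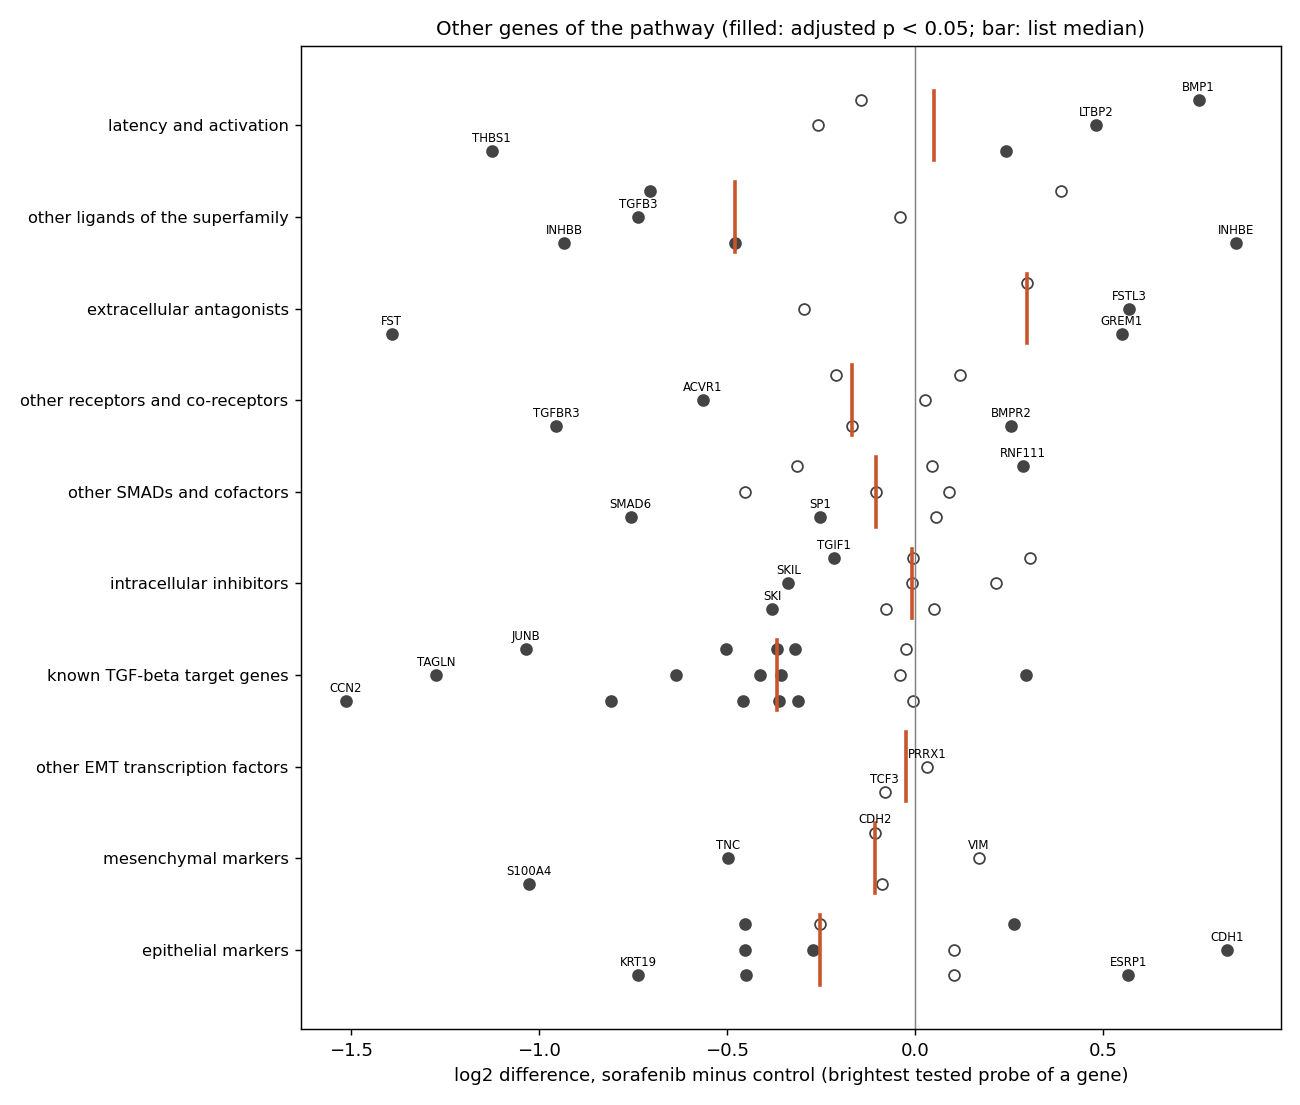
Log2 difference between sorafenib and control (horizontal axis) for the tested genes of the 10 other lists, 1 point per gene, filled where adjusted p was under 0.05, with a bar at each list median. Of the 17 known TGF-beta target genes 13 are filled to the left of 0, while the epithelial markers spread from KRT19 at -0.74 to CDH1 at 0.83.

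**Figure D4:**
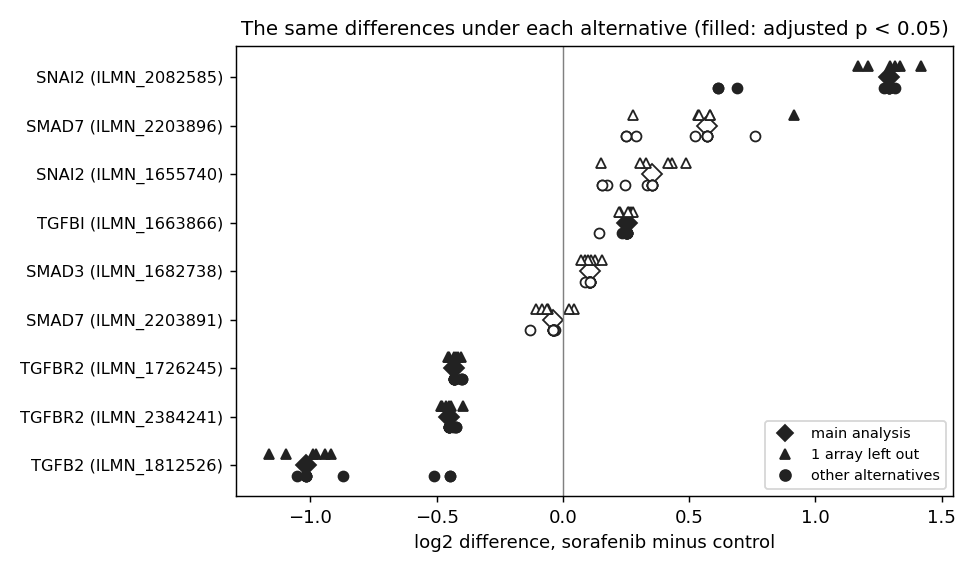
Log2 difference of each tested probe (horizontal axis) in the main analysis (diamonds), with 1 array left out (triangles) and under the other alternatives (circles), filled where adjusted p was under 0.05. TGFB2, both TGFBR2 probes and SNAI2 ILMN_2082585 are filled throughout, every triangle of TGFBI is open, and the circles of TGFB2 and SNAI2 nearest to 0 (-0.45 and 0.61) are those without background correction.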

How the data were processed

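RNA of 6 Hep3B samples was labelled with a TargetAmp-Nano kit, per the labels' protocols. Per the file headers, the authors deposited non-normalized intensity values with detection p-values for 47321 probes. The authors also deposited log2 values with no stated method. Quantile normalization of the log2 intensities gave these values with a largest gap of 5.0e-07. No slide or scan date was available to test as a batch.

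Here, intensities were background-corrected from the detection p-values (neqc, offset 16) and quantile-normalized with limma 3.58.1 in R 4.3.3. Probes with detection p under 0.01 on at least 3 of 6 arrays (16909) were fitted with lmFit and eBayes without a block, two-sided, with Benjamini-Hochberg adjustment over all of them and a threshold of 0.05. Arrays left out in turn were refitted on these same probes. Errors are moderated standard errors, and the number of arrays limits the precision. The offset compresses differences of dim probes. The pipeline was tested on simulated data.

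The platform annotation gave 30112 probes 1 symbol, 8 several and 17201 none. Probe sequences were not used here. Promoter stretches came from RefSeq (GRCh38.p14). The 9 genes and 12 lists were chosen with earlier results of these data known. Named from each list were up to 3 passing genes with the largest differences, plus, where fewer passed, up to 2 of the brightest others. Genes with profiles nearest to a member are not given, since the members large enough to qualify (SNAI2 and TGFB2) were at background in 1 group. Alternatives were background correction, normalization, filters, variance model, array weights, replicate number as a block, arrays left out, and the median over a gene's probes.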

Additional observations from a re-analysis of the deposited data

How the results depend on the processing

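Over 16 alternatives the number of the 9 genes' probes past the threshold was 3 to 5 (4 to 5 with 1 array left out). It was 3 when detection on all 6 arrays was required, since TGFB2, SNAI2 and the dimmer SMAD7 probe are then not tested. TGFB2 (-1.17 to -0.45), both bright TGFBR2 probes (-0.48 to -0.40) and SNAI2 ILMN_2082585 (0.61 to 1.42) kept direction and call in every alternative that tested them. TGFBI lost its call in 8 of 16, all 6 with 1 array left out among them. The brighter SMAD7 probe ranged from -0.106 to 0.045 with 1 array left out, turning to 0.045 without control replicate 1 and to 0.023 without sorafenib replicate 1. The other 10 lists held 45 called genes, and 31 to 49 under 17 alternatives. All tested probes held 5774 calls, and 4021 to 6696 under 16. The replicate number as a block gave 5 called probes of the 9 genes and 5509 of all. Same-numbered arrays correlated in their deviations from group means at 0.09, 0.10 and 0.25. Arrays numbered 2 and those numbered 3 matched each other best, but arrays numbered 1 did not, so the numbers were not taken to pair samples. Dim probes (SNAI2, TGFB2, the second SMAD7 probe) are limited by signal near background.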
